A study of Mus musculus with 8 samples.

Results

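The genes described here are 51 mouse interferon-stimulated genes and core interferon signalling genes, listed by symbol; no threshold on a measured value selects them, although the list was drawn up with earlier results of these data known. They were found by matching the Ensembl identifiers of the count tables to mouse symbols. Of the 51, 49 had a row of their own among 41388 gene identifiers, and 47 had enough counts to test, out of 16105 genes tested. RNA was sequenced from the whole ear of adult WT C57Bl/6 mice. Ears of 4 mice received ethanol alone, the vehicle, and ears of 4 mice received topical MC903 at 1 nmol daily for 12 days. MC903 is calcipotriol, a vitamin D analog that produces itchy, inflamed, atopic dermatitis-like skin in mice. The sample labels number the libraries within each group and do not name the animals, so p-values measure the spread between these libraries.

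Interferons are secreted proteins that switch on antiviral genes in the cells they reach. Type I interferons bind a receptor made of IFNAR1 and IFNAR2, and interferon gamma, made mainly by T cells and natural killer cells, binds IFNGR1 and IFNGR2. Type I receptors act through a complex that holds STAT2 and IRF9 and binds the interferon-stimulated response element (ISRE), and the gamma receptor acts on genes that carry the gamma-activated sequence (GAS). In skin, keratinocytes, resident cells and infiltrating leukocytes can all answer to interferon.

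Library totals ran from 12310466 to 16837221 counts, and 3 counts corresponded to 0.178 to 0.244 CPM, a gene's counts scaled to the library total. Vehicle replicate 2 stood apart, with 24.5% of its counts from Bpifa2, a salivary gland protein gene. Levels below are CPM adjusted with edgeR's TMM factors, which scale libraries by the bulk of their genes. Cyp24a1, which breaks down vitamin D and is induced by its receptor, had a log2 fold change of 7.67 ± 0.23 (SE) between MC903 and vehicle skin. Across all genes tested, 41.5% passed edgeR's quasi-likelihood test at a Benjamini-Hochberg adjusted p of 0.05, which is the rule for every gene called higher or lower below.

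MC903 skin held more RNA of most of these genes. Of the 47 tested, 42 were higher, 0 were lower and 5 did not pass, against a background of 21.3% of all genes tested called higher. The count of 0 lower was also 0 at an unadjusted p under 0.05, and with DESeq2 and limma-voom. At least 2-fold higher were 37, against 9.39% of all genes. The median log2 fold change was 1.90, with a range of 0.14 to 4.19, and the median over all genes tested was -0.03. Without vehicle replicate 2, 43 members were higher. The low-count filter asked for about 0.662 CPM in as many libraries as a group holds; 45 of the 47 passed it on the vehicle libraries alone, and Oas3 and Oasl1 passed only through the MC903 libraries. Of those 45, 40 were higher with a median of 1.81, beside 20.2% and -0.06 for the 14993 genes that passed on vehicle alone. All 4 MC903 values lay above all 4 vehicle values for 42 of the 47, which held for 19.8% of all genes. Socs2 was called with overlapping groups, and the groups of Ifnar1 were apart without a call.

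**Figure D1:**
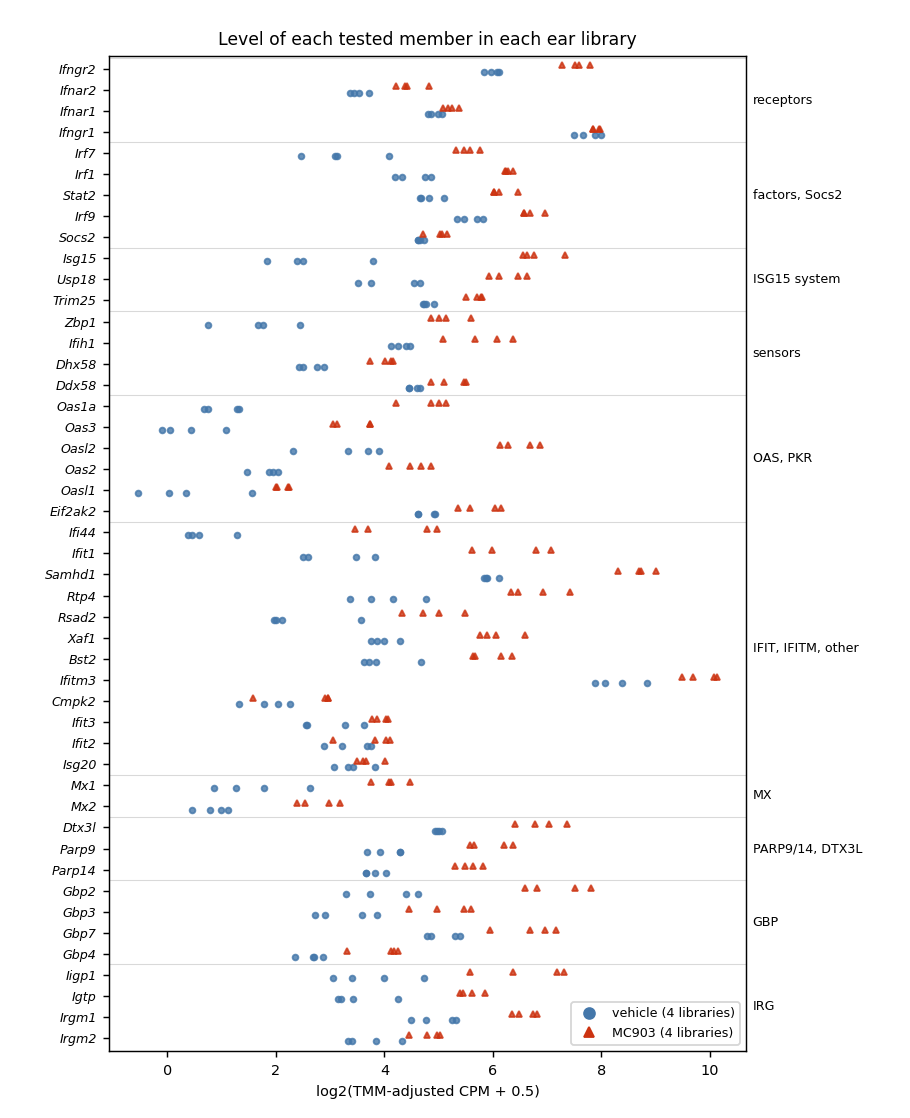
Level of each of the 47 tested genes, by row and grouped by role, in each of the 8 ear libraries (circles, vehicle; triangles, MC903); the x axis is log2 of TMM-adjusted CPM plus 0.5. For 42 genes every triangle lies to the right of every circle.

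All samples were whole ear, so a change in cell number and a change in RNA per cell cannot be told apart. Markers of blood cells moved with the groups. All 4 pan-leukocyte markers were higher, led by Cd53 (log2 fold change 1.85 ± 0.17) and Coro1a (1.46 ± 0.19); their summed level was 242 to 312 CPM in vehicle and 667 to 855 CPM in MC903 libraries. Macrophage and monocyte markers were higher for 12 of 13 (857 to 1052 against 2077 to 3093 CPM; C1qa 2.57 ± 0.17 and Mrc1 1.75 ± 0.16). T cell markers were higher for 11 of 14 (88.1 to 113 against 171 to 208 CPM; Icos 2.99 ± 0.21 and Trbc2 1.63 ± 0.13), while Cd3e, Cd3g and Cd247 did not pass. Neutrophil markers were higher for all 7 tested (34.9 to 116 against 417 to 1446 CPM), led by Cxcr2 (2.82 ± 0.15) and Mmp8 (3.25 ± 0.27). Mean levels of S100a8 (23.1 against 552.5 CPM) and S100a9 (29.5 against 421 CPM) made up most of that sum. The defining marker Ly6g had 0 counts in all vehicle libraries and in 1 MC903 library, and 6 over the MC903 group. Of 7 natural killer and cytotoxic cell markers tested, 5 were higher and 1 lower (30.0 to 34.7 against 58.0 to 96.3 CPM). Gzmb (4.47 ± 0.25) and Gzma (4.70 ± 0.65) had the smallest p, and mean Gzmb went from 0.954 to 21.4 CPM. The lower gene was Prf1, at -1.13 ± 0.38 (edgeR adjusted p = 0.0321) with overlapping groups. Ncr1, Klre1, Eomes and Gzma had a count of 0 in at least 1 vehicle library. Plasmacytoid dendritic cell markers, from cells that make much type I interferon, were 1 higher and 1 lower of 4 tested (490 to 676 against 341 to 366 CPM; Ccr9 0.88 ± 0.15 and Tcf4 -0.77 ± 0.15). Most of that sum came from Tcf4 (373 to 219 CPM) and Cox6a2 (198 to 109 CPM). Within the groups Cox6a2 was lowest in vehicle replicate 4 (78.3 CPM) and MC903 replicate 2 (66.3 CPM). The skeletal muscle marker Acta1 was lowest in the same libraries (1370 and 694 CPM). The sum may thus follow other cells too, which was not tested. The more specific marker Siglech, at 5.70 ± 0.46 and 6.396 ± 1.91 CPM (SD, n = 4), did not pass. Keratinocyte markers were higher for 2 of 8 (8220 to 8971 against 13910 to 15720 CPM), Krt1 (3.19 ± 0.23) and Krt14 (1.87 ± 0.19). Most of the rise in that sum came from mean Krt14 (1939 against 7077 CPM) and Krt1 (202 against 1848 CPM). The other 6 did not pass. Krt10 (-0.27), Trp63 (-0.34), Dsg1a (-0.59) and Lor (-0.46) had negative log2 fold changes, and Krt5 (0.34) and Dsp (0.04) positive ones. Endothelial markers were higher for 1 of 5 (95.1 to 128 against 116 to 175 CPM; Pecam1 0.45 ± 0.17; Emcn, next by p, at 0.31 ± 0.18, did not pass). Skeletal muscle markers were lower for 3 of 5 (2699 to 8237 against 1312 to 4613 CPM; Pvalb -1.39 ± 0.42 and Myh4 -1.66 ± 0.52). The part of these cells in the changes of the interferon genes was not tested.

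The ligand in the list, interferon gamma (Ifng, chr10:118441047-118445892), was detected in MC903 skin only. Its counts were 0 in each vehicle library, and 8, 13, 25 and 19 in MC903 replicates 1 to 4. All 4 MC903 libraries lay above a floor of 3 counts and no vehicle library had a read. Against 3 counts over the vehicle group, the MC903 sum of 65 counts stood at 24.2-fold, a ratio that carries no error on the MC903 counts. The gene did not pass the low-count filter, and with no filter edgeR called it higher (adjusted p = 1.06e-05). About 25.9% of its exonic bases are shared on the same strand with the predicted gene Gm49751, so some reads may belong to either. Other interferons were at the edge of detection. Of 9 further interferon genes, none had enough counts to test. Ifnb1 had 0 counts in vehicle and 3 in MC903 libraries, Ifna1, Ifna2 and Ifna5 had 0 in both groups, Ifna4 had 0 and 1, and Ifne had 0 and 2. The type III interferons Ifnl2 and Ifnl3 had 0 counts in vehicle and 5 and 7 in MC903 libraries. No single library held more than 2 of the first or 3 of the second, so no library rose above the floor of 3 counts. Each was seen in 3 of the 4 MC903 libraries. Against 3 counts over the vehicle group, their MC903 sums stood at 1.86-fold and 2.6-fold. Ifnk, a type I interferon of keratinocytes, had 27 counts in vehicle and 16 in MC903 libraries, a ratio of 0.661 whose 95% exact interval of 0.333 to 1.27 covers counting error only and includes equality.

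Of the 4 receptor genes, 1 chain of each receptor was called higher and the other was not. Ifngr1, the chain that binds interferon gamma, measured 180.3, 203, 254 and 235 CPM in vehicle replicates 1 to 4 and 247, 252, 229.7 and 230.4 CPM in MC903 replicates 1 to 4. These groups overlapped, and the log2 fold change of 0.14 ± 0.14 (SE) did not pass (edgeR adjusted p = 0.458). Ifngr2, the signalling chain, measured 68.6, 56.7, 62.0 and 67.2 CPM in vehicle and 220.4, 191, 183 and 155 CPM in MC903 libraries. Every MC903 value was far above the highest vehicle value, with a log2 fold change of 1.56 ± 0.14 (edgeR adjusted p = 9.45e-06). Ifnar1 measured 31.1, 27.4, 28.4 and 32.7 CPM in vehicle and 35.6, 40.9, 37.6 and 33.3 CPM in MC903 libraries. The groups lay apart by a small gap, and the change of 0.30 ± 0.12 did not pass (edgeR adjusted p = 0.0597), although it did with DESeq2 (adjusted p = 0.0429) and without MC903 replicate 1 (0.0469) or 4 (0.0448). Ifnar2 measured 10.3, 11.0, 9.77 and 12.6 CPM in vehicle and 20.9, 27.9, 20.2 and 17.9 CPM in MC903 libraries. It was higher in every MC903 library, by 0.99 ± 0.16 on the log2 scale (edgeR adjusted p = 0.000565). Per kilobase of gene length (RPKM, the CPM divided by length in kilobases), the receptor chains in vehicle skin ran from Ifngr1 at 76.5 ± 11.5 (SD, n = 4) through Ifngr2 at 19.2 ± 1.63 and Ifnar1 at 5.09 ± 0.41 to Ifnar2 at 3.28 ± 0.36. In MC903 skin Ifngr1 was at 84.2 ± 4.00 and Ifngr2 at 56.6 ± 8.15, while Ifnar2 at 6.53 ± 1.29 and Ifnar1 at 6.27 ± 0.55 did not differ beyond their spread.

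All 4 transcription factors of the list were higher. Stat2, part of the factor that type I receptors activate, measured 24.7, 33.9, 27.9 and 24.9 CPM in vehicle and 64.4, 87.9, 64.4 and 68.4 CPM in MC903 libraries. Its groups were apart, with a log2 fold change of 1.36 ± 0.15 (edgeR adjusted p = 4.24e-05). Irf9, the DNA-binding partner of STAT2, measured 43.7, 51.9, 55.6 and 40.0 CPM in vehicle and 94.5, 123, 94.6 and 103 CPM in MC903 libraries, with no overlap. The difference was 1.12 ± 0.14 (edgeR adjusted p = 0.000118). Irf1, a factor that interferon gamma induces early, was at 17.8, 28.5, 26.3 and 19.6 CPM in vehicle and at 74.96, 76.9, 74.2 and 82.1 CPM in MC903 libraries. The MC903 libraries lay close together, all above vehicle, and Irf1 had the smallest p of the factors, with a change of 1.74 ± 0.16 (edgeR adjusted p = 1.14e-05). Irf7, which drives type I interferon genes and is itself interferon-induced, was at 8.01, 16.4, 8.23 and 4.997 CPM in vehicle and 47.5, 53.9, 39.6 and 43.7 CPM in MC903 libraries. It showed the largest difference of the factors, 2.30 ± 0.29 (edgeR adjusted p = 0.000109), and its highest vehicle value came from replicate 2. Socs2, an inhibitor of cytokine receptor signalling, was at 24.2, 24.0, 26.1 and 24.7 CPM in vehicle and 25.6, 32.8, 32.1 and 35.1 CPM in MC903 libraries. MC903 replicate 1 lay within the vehicle range, and the call (0.34 ± 0.13, edgeR adjusted p = 0.047) was lost in 13 of 18 alternative analyses, which ranged over adjusted p-values of 0.00606 to 1. With 1 library left out, it held only without MC903 replicate 1.

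Genes of the same pathway outside the list were read from the same fit. Of 13 other receptor chains, kinases, factors and inhibitors, 9 were higher and 0 lower. Irf8, a factor of macrophages and dendritic cells, rose by 1.99 ± 0.17 on the log2 scale, from 7.30 ± 0.75 to 28.9 ± 5.69 CPM (SD, n = 4). The kinases Jak1 (0.19 ± 0.15) and Tyk2 (-0.21 ± 0.12) and the type III receptor chains Ifnlr1 (-0.27 ± 0.16) and Il10rb (0.45 ± 0.18) did not pass. Of 13 nucleic acid sensing and adaptor genes tested, 7 were higher, led by Tmem173 (STING, which relays cytosolic DNA sensing; 1.85 ± 0.14) and Myd88 (the adaptor of most Toll-like receptors; 1.17 ± 0.14). Nod1, a bacterial peptidoglycan sensor, was lower at -0.36 ± 0.12 (edgeR adjusted p = 0.033). Mavs (-0.41 ± 0.21), Tlr3 (-0.06 ± 0.25), Ticam1 (0.003 ± 0.14), Tbk1 (0.17 ± 0.18) and Ikbke (-0.03 ± 0.15), which sense nucleic acid or relay such sensing, did not pass. Tlr7 was among the 7 higher, at 0.65 ± 0.18 (edgeR adjusted p = 0.0125). Of 47 further interferon-stimulated genes tested, 40 were higher and 0 lower. The smallest p-values were those of Cxcl9, a chemokine for T cells that interferon gamma induces (4.53 ± 0.20), and Slfn2, a Schlafen family gene of leukocytes (2.52 ± 0.17). Over the 73 outside genes tested, 56 (76.7%) were higher, 1 was lower, and the median log2 fold change was 1.14.

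**Figure D2:**
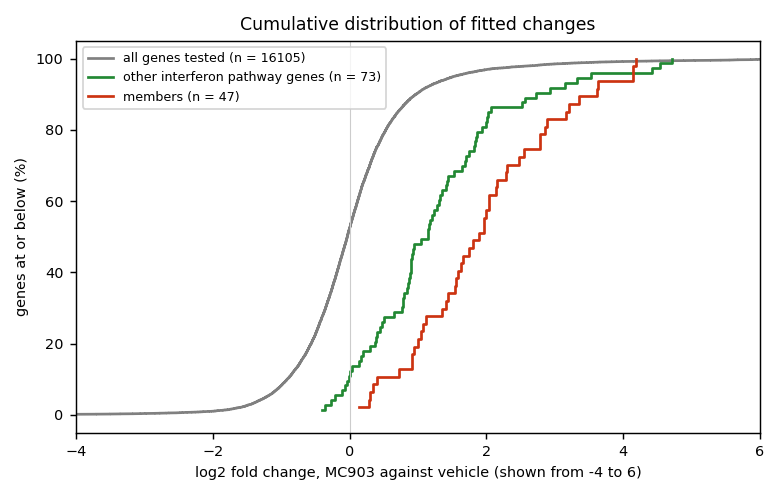
Cumulative share of genes (y axis, percent) at or below each log2 fold change of MC903 against vehicle (x axis; the outermost genes are not shown) for all 16105 genes tested, the 73 other interferon pathway genes and the 47 listed genes. The curve of the 47 crosses its midpoint at the median of 1.90, to the right of the 73 at 1.14 and of all genes at -0.03.

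The promoters of the listed genes were searched for the letters of both elements. RefSeq promoters on GRCm38.p6, from 250 bases before to 50 after the start, were at hand for 37 of the 51. The ISRE core (TTTC, any 2 bases, TTTC), on either strand, was in 19 of the 37 (51.4%), and in 3.99% of 27025 genes with such a promoter. The GAS core TTCNNNGAA, which reads the same on both strands, was in 15 of 37 (40.5%) and in 9.55% of all. The ISRE core was in 18 of the 30 genes called higher (60.0%) and in 0 of the 5 tested and not called, Ifngr1, Ifnar1, Ifit2, Isg20 and Cmpk2. Among the genes called higher it was in 7 of 13 with a log2 fold change of 2 or more and in 11 of 17 with a smaller one. The GAS core was in 10 of the 30 called higher (33.3%) and in 3 of the 5 not called, and in 3 of 13 and 7 of 17 by the same sizes. The stretches below hold the matches for genes the results turn on, each on the gene's strand from 5′ to 3′ and lying before the start, with matched letters in capitals; a match is a description of letters and not a measured site. ISRE cores are shown for the first 6 genes and a GAS core for Irf1.
Isg15 (chr4:156200850-156200921, minus strand): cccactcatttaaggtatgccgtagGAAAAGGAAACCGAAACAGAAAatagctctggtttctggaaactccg
Oas1a (chr5:120907526-120907570, minus strand): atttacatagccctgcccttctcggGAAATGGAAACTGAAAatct
Ifit1 (chr19:34640760-34640838, plus strand): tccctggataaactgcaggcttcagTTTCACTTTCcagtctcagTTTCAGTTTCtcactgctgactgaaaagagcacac
Ifit3 (chr19:34583348-34583441, plus strand): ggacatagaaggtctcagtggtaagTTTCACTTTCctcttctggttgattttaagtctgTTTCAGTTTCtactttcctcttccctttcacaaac
Rsad2 (chr12:26456538-26456597, minus strand): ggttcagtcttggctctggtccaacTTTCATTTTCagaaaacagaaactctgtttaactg
Gbp2 (chr3:142620579-142620638, plus strand): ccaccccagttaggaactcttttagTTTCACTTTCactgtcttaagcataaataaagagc
Irf1 (chr11:53769899-53769957, plus strand): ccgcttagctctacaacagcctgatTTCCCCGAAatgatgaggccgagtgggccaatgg
Isg15 holds 3 overlapping ISRE cores and Oas1a holds 2, both on the opposite strand, where the core reads GAAA, any 2 bases, GAAA, while Ifit1 and Ifit3 each hold 2 separate cores with the same letters.

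All 3 genes of the ISG15 system were higher, and Isg15 itself changed most. Isg15, a ubiquitin-like protein that is joined to other proteins, measured 5.18, 13.3, 4.74 and 3.06 CPM in vehicle and 98.5, 161, 92.9 and 108 CPM in MC903 libraries. The lowest MC903 library stood well above the highest vehicle library, replicate 2, and the log2 fold change was 4.15 ± 0.40 (edgeR adjusted p = 1.55e-05). Per kilobase it went from 8.69 ± 6.05 to 152 ± 41.3 RPKM (SD, n = 4), below only Ifitm3 among the listed genes in MC903 skin. Usp18, the protease that removes ISG15 and restrains the type I receptor, was higher by 2.15 ± 0.27, and Trim25, a ubiquitin ligase that helps activate RIG-I, by 0.94 ± 0.12, from 25.6 to 29.5 CPM in vehicle to 44.99 to 55.2 CPM in MC903 libraries.

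All 4 nucleic acid sensors of the list were higher. Zbp1, a sensor of Z-form nucleic acid that can trigger cell death, measured 2.89, 4.92, 2.69 and 1.19 CPM in vehicle and 34.8, 47.8, 28.5 and 31.5 CPM in MC903 libraries. Its groups were far apart, with a log2 fold change of 3.63 ± 0.33 (edgeR adjusted p = 1.09e-05), the largest of the 4. The cytosolic RNA helicases changed less. Ifih1 (MDA5) was higher by 1.59 ± 0.24, Dhx58 (LGP2) by 1.44 ± 0.17 and Ddx58 (RIG-I) by 0.73 ± 0.16. Ddx58 ran from 21.3 to 24.6 CPM in vehicle and from 28.5 to 44.7 CPM in MC903 libraries, so the groups were apart by a small margin.

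The 2′-5′ oligoadenylate synthetases, which sense double-stranded RNA and activate RNase L, had with the RNA-activated kinase gene Eif2ak2 (PKR) the highest median log2 fold change of any role group, 3.03 over 6 genes, all called higher. Oas1a, the listed gene with the largest change, was at 2.003, 1.92, 1.09 and 1.19 CPM in vehicle and 34.8, 28.3, 18.0 and 31.8 CPM in MC903 libraries. Each MC903 library was far above every vehicle library, with a log2 fold change of 4.19 ± 0.27 (edgeR adjusted p = 1.19e-06). Oas2 was at 3.36, 3.61, 3.14 and 2.25 CPM in vehicle and 21.7, 28.7, 16.4 and 25.1 CPM in MC903 libraries (2.89 ± 0.21). Oas3 was at 0.530, 1.61, 0.857 and 0.437 CPM in vehicle and 7.83, 12.8, 8.22 and 12.7 CPM in MC903 libraries (3.62 ± 0.36). Both were apart between groups, and Oas3 was close to the detection floor in vehicle skin. Oasl2, an oligoadenylate synthetase-like gene, was at 9.54, 14.5, 12.4 and 4.50 CPM in vehicle and 76.7, 117, 69.4 and 103 CPM in MC903 libraries (3.16 ± 0.31). Its neighbour Oasl1, which lacks the synthetase activity, was at 0.766, 2.46, 0.514 and 0.187 CPM in vehicle and 3.58, 4.17, 4.24 and 3.49 CPM in MC903 libraries. It was called higher (2.03 ± 0.51, edgeR adjusted p = 0.00804), and the estimate was 2.94 without vehicle replicate 2. Eif2ak2 was higher by 1.05 ± 0.18. Reads shared with close copies, such as Oas1g for Oas1a, may have been split by the counting.

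**Figure D3:**
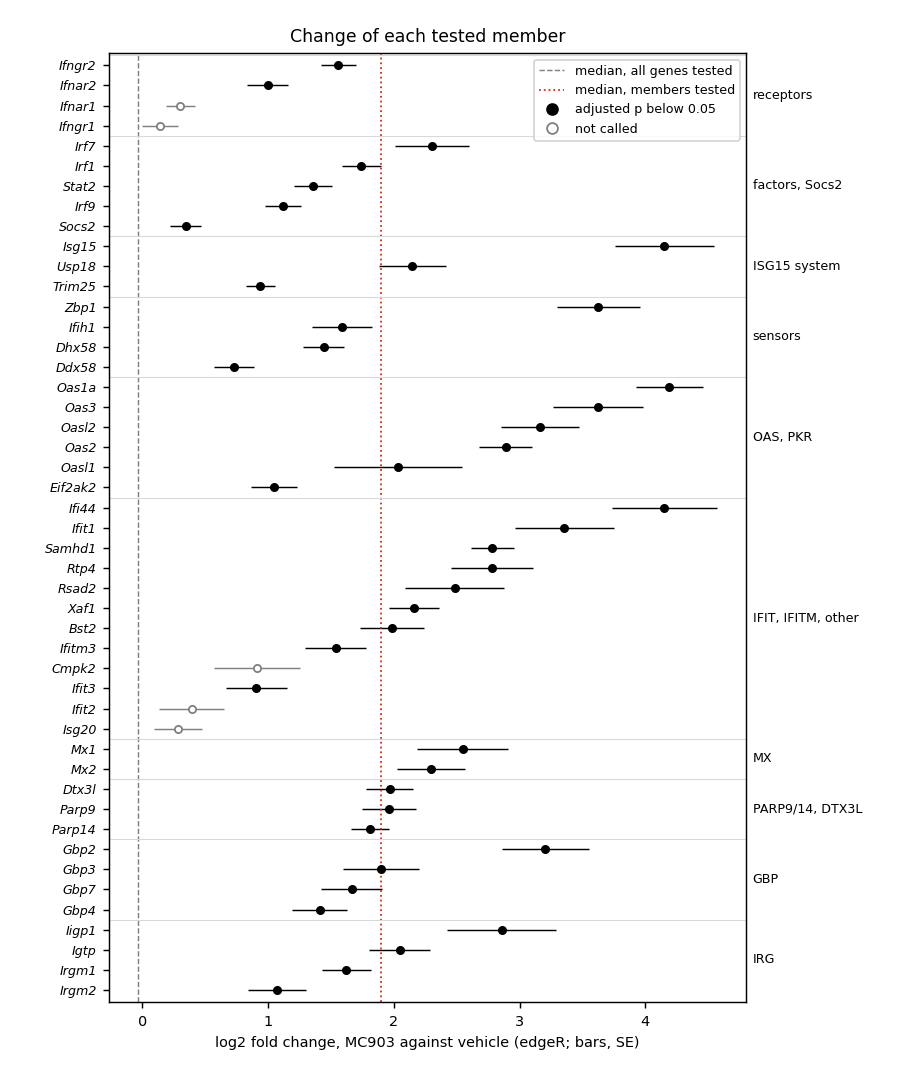
Fitted log2 fold change of MC903 against vehicle (x axis) for each of the 47 tested genes, grouped by role; bars are 1 SE, filled points passed the adjusted p of 0.05 and open points did not. The 5 open points are Ifngr1, Ifnar1, Ifit2, Isg20 and Cmpk2, and the dotted line marks the median of 1.90.

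The IFIT genes, whose proteins bind foreign RNA, differed widely although they lie side by side at chr19:34550694-34650009. Ifit1 measured 5.18, 13.6, 10.6 and 5.56 CPM in vehicle and 48.2, 135, 62.7 and 111 CPM in MC903 libraries. Its groups were apart, with MC903 replicates 2 and 4 highest, and the log2 fold change was 3.35 ± 0.39 (edgeR adjusted p = 6.15e-05). Ifit3 measured 5.36, 11.8, 9.20 and 5.43 CPM in vehicle and 13.2, 15.9, 13.98 and 16.3 CPM in MC903 libraries. It was higher by 0.91 ± 0.24 (edgeR adjusted p = 0.0111) with a narrow gap between groups, and did not pass a test against a minimum of 1.5-fold (edgeR's glmTreat, adjusted p = 0.159). Ifit2 measured 6.89, 12.3, 13.0 and 8.75 CPM in vehicle and 7.76, 15.8, 13.7 and 16.6 CPM in MC903 libraries. The groups overlapped and 0.39 ± 0.26 did not pass (edgeR adjusted p = 0.244), although it did without MC903 replicate 1 (0.59, adjusted p = 0.0472). In the promoter stretches printed above, Ifit1 and Ifit3 hold the same pair of ISRE cores. The promoter searched for Ifit2 held none, and sequence outside it was not searched. Whether these cores bear on the changes was not tested.

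With 9 further antiviral genes, the IFIT genes made a role group of 12, of which 9 were higher and 3 did not pass. Ifi44, an interferon-induced gene whose product is less well understood, measured 1.00, 1.92, 0.7998 and 0.875 CPM in vehicle and 10.5, 26.9, 12.5 and 30.7 CPM in MC903 libraries. It rose by 4.15 ± 0.42 on the log2 scale (edgeR adjusted p = 2.32e-05), and MC903 replicates 2 and 4 stood well above replicates 1 and 3. Samhd1, a dNTP-cleaving enzyme that limits viral DNA synthesis, measured 57.7, 68.2, 58.7 and 56.8 CPM in vehicle and 423, 413, 314 and 514 CPM in MC903 libraries. No vehicle library came near the MC903 libraries, and the p was the smallest of all listed genes (2.78 ± 0.17, edgeR adjusted p = 1e-06). Rtp4, an interferon-induced chaperone of cell surface receptors, measured 13.0, 26.7, 17.4 and 9.74 CPM in vehicle and 80.5, 171, 87.5 and 121 CPM in MC903 libraries, with no overlap (2.78 ± 0.32). Rsad2 (viperin, which makes a chain-terminating nucleotide) measured 3.42, 11.3, 3.49 and 3.81 CPM in vehicle and 19.4, 44.4, 25.8 and 31.6 CPM in MC903 libraries. Vehicle replicate 2 stood above the other vehicle libraries, and the change of 2.48 ± 0.40 (edgeR adjusted p = 0.000529) was 3.07 without it. Its neighbour Cmpk2, a mitochondrial nucleotide kinase, measured 2.003, 4.30, 2.91 and 3.62 CPM in vehicle and 2.50, 6.999, 7.29 and 7.30 CPM in MC903 libraries. MC903 replicate 1 fell within the vehicle range, and 0.91 ± 0.34 just missed the threshold (edgeR adjusted p = 0.0502); it passed in 8 of 18 alternative analyses, which ranged over 0.0036 to 0.281, among them those without MC903 replicate 1 (0.0036) and without vehicle replicate 2 (0.043). Xaf1, a promoter of cell death, was higher by 2.16 ± 0.20, and Bst2 (tetherin, which holds budding virus at the cell surface) by 1.99 ± 0.26. Isg20, an exonuclease, measured 9.48, 13.7, 7.88 and 10.2 CPM in vehicle and 15.5, 10.8, 12.1 and 11.7 CPM in MC903 libraries. Those groups overlapped, and 0.28 ± 0.19 did not pass (edgeR adjusted p = 0.247). Ifitm3, a membrane protein that blocks virus entry, had the highest level per kilobase of the list in both groups, 476 ± 143 RPKM in vehicle and 1381 ± 294 RPKM in MC903 skin (SD, n = 4), with a change of 1.54 ± 0.24.

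The remaining families were higher in every member with a row. Both MX genes, of a family of dynamin-like GTPases, rose. Mx2 measured 1.47, 1.23, 1.66 and 0.875 CPM in vehicle and 5.33, 8.58, 4.70 and 7.38 CPM in MC903 libraries, with no overlap (2.29 ± 0.27, edgeR adjusted p = 6.29e-05). Mx1 changed by 2.55 ± 0.36, from 1.31 to 5.69 CPM in vehicle to 13.0 to 21.8 CPM in MC903 libraries. Parp14, an ADP-ribosyltransferase, measured 12.1, 15.9, 13.7 and 12.1 CPM in vehicle and 39.1, 56.0, 44.4 and 49.0 CPM in MC903 libraries, apart in every library (1.81 ± 0.15, edgeR adjusted p = 6.32e-06). Its neighbours Parp9 and Dtx3l, whose proteins work as a pair of ADP-ribosyltransferase and ubiquitin ligase, changed by 1.96 ± 0.21 and 1.97 ± 0.18. These overlap on opposite strands over 458 exonic bases, 9.4% of Parp9 and 8.0% of Dtx3l, and the library protocol has no step that marks strand.

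The guanylate-binding proteins and immunity-related GTPases, which attack the vacuoles of intracellular pathogens, are among the strongest targets of interferon gamma in mice. Gbp2 measured 12.8, 20.6, 24.0 and 9.31 CPM in vehicle and 95.4, 183, 111 and 225 CPM in MC903 libraries. Its groups were well apart (log2 fold change 3.203 ± 0.35, edgeR adjusted p = 3.74e-05), with MC903 replicates 4 and 2 highest. Gbp3, Gbp7 and Gbp4 were higher by 1.90 ± 0.30, 1.67 ± 0.24 and 1.41 ± 0.22, all without overlap. Gbp5 and Gbp6 had no row of their own. In GENCODE M21, these genes fall at least in part inside wider gene models of the deposited tables, those of Gbp2b (chr3:142496934-142619179) and Gm43302 (chr5:105215699-105293699), which were higher by 2.57 ± 0.29 and 1.06 ± 0.35; the groups of Gm43302 overlapped. Iigp1 measured 10.1, 15.4, 26.2 and 7.75 CPM in vehicle and 47.2, 145, 81.8 and 158 CPM in MC903 libraries. It changed most of the immunity-related GTPases (2.86 ± 0.44, edgeR adjusted p = 0.000394) and spread widely within each group, without overlap between them. Igtp measured 8.72, 10.2, 18.6 and 8.37 CPM in vehicle and 41.4, 48.3, 42.9 and 57.5 CPM in MC903 libraries, with no overlap (2.04 ± 0.25, edgeR adjusted p = 7.47e-05). Irgm1 and Irgm2, which regulate the other immunity-related GTPases, were higher by 1.62 ± 0.20 and 1.07 ± 0.23. Igtp and Irgm2 share 162 exonic bases on the same strand, 8.01% of Igtp and 4.39% of Irgm2, and reads of close family members may have been split.

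The last listed gene, Ido1, the tryptophan-degrading enzyme that interferon gamma induces in many cells, was not detectably different at this depth. Its counts summed to 7 in vehicle and 13 in MC903 skin; their ratio, scaled for library totals, was 2.07 (95% exact interval 0.768 to 6.13).

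Neighbouring or partner genes were compared inside each library, where scaling between libraries cancels. The value was the log2 ratio of their counts per length, with 0.5 added to each count. The choice of the 8 pairs was made with their values in view, so the ratios are a description and are given without a test. For Ifngr2 over Ifngr1 the ratio was -1.99 ± 0.27 (SD, n = 4) in vehicle and -0.58 ± 0.17 in MC903 skin, and for Ifnar2 over Ifnar1 it was -0.64 ± 0.13 and 0.05 ± 0.16. Neither ratio overlapped between groups. Ifit1 over Ifit3 went from -0.51 ± 0.13 to 1.86 ± 0.55, and Ifit1 over Ifit2 from 0.26 ± 0.33 to 3.23 ± 0.37. Rsad2 over Cmpk2 went from 0.18 ± 0.59 to 1.95 ± 0.51. These 3 ratios did not overlap between groups either. Parp9 over Dtx3l was -0.74 ± 0.26 and -0.72 ± 0.27, a difference of 0.02. For Mx1 over Mx2 the difference was 0.42 and for Oasl2 over Oasl1 it was 0.77, both smaller than the SD of the vehicle libraries, 0.86 and 0.91.

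**Figure D4:**
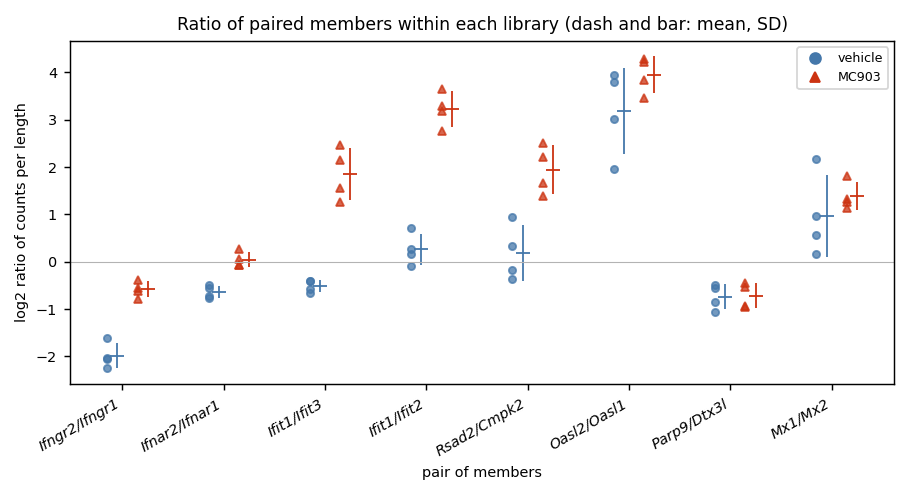
Log2 ratio of counts per length (y axis) for 8 pairs of listed genes (x axis) in each library; circles are vehicle, triangles MC903, and the dash and bar beside them are the mean and SD of 4 libraries. Both Ifngr2/Ifngr1 and Ifit1/Ifit2 lie apart between groups, whereas Parp9/Dtx3l lies at the same height in both.

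Other groups of chromosomal neighbours spanned the following ranges of log2 fold change. The 3 oligoadenylate synthetase genes at chr5:120730333-120907521 ran from 2.89 to 4.19, and Gbp7, Gbp3 and Gbp2 at chr3:142530338-142638008 from 1.67 to 3.203. Parp14, Dtx3l and Parp9 at chr16:35832874-35972605 lay close together, at 1.81 to 1.97. Ifnar2, Ifnar1 and Ifngr2 at chr16:91372783-91565169 ran from 0.30 to 1.56.

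Within a group the listed genes tended to be high or low in the same libraries. Vehicle replicate 2 held the highest vehicle value for 28 of the 47 genes (59.6%), beside 23.9% of all genes tested, and vehicle replicate 4 the lowest for 29 (61.7%), beside 22.2%. MC903 replicate 2 held the highest MC903 value for 25 (53.2%, beside 24.0%), and MC903 replicate 1 the lowest for 25 (53.2%, beside 33.7%). Relative to the vehicle mean, the median listed gene stood at -0.13, 0.29, 0.07 and -0.30 on the log2 scale in vehicle replicates 1 to 4 and at 1.67, 2.07, 1.69 and 1.88 in MC903 replicates 1 to 4. These shifts within groups were small beside the gap between them. With library totals alone, which count its Bpifa2 reads, vehicle replicate 2 was the highest for 10 of the 47 (21.3%), beside 2.67% of all genes, so its share among the listed genes was above that of all genes under both scalings. It was then also the lowest vehicle library for 19 (40.4%), beside 79.8% of all genes. Vehicle replicate 3 was the highest for 26 (55.3%), beside 30.6%, so which library was highest depended on the scaling. All 4 immunity-related GTPases were highest in vehicle replicate 3 and lowest in vehicle replicate 4. The highest vehicle value was at least 2-fold above the lowest for 17 of the 47 genes, and the highest MC903 value was so for 11.

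**Figure D5:**
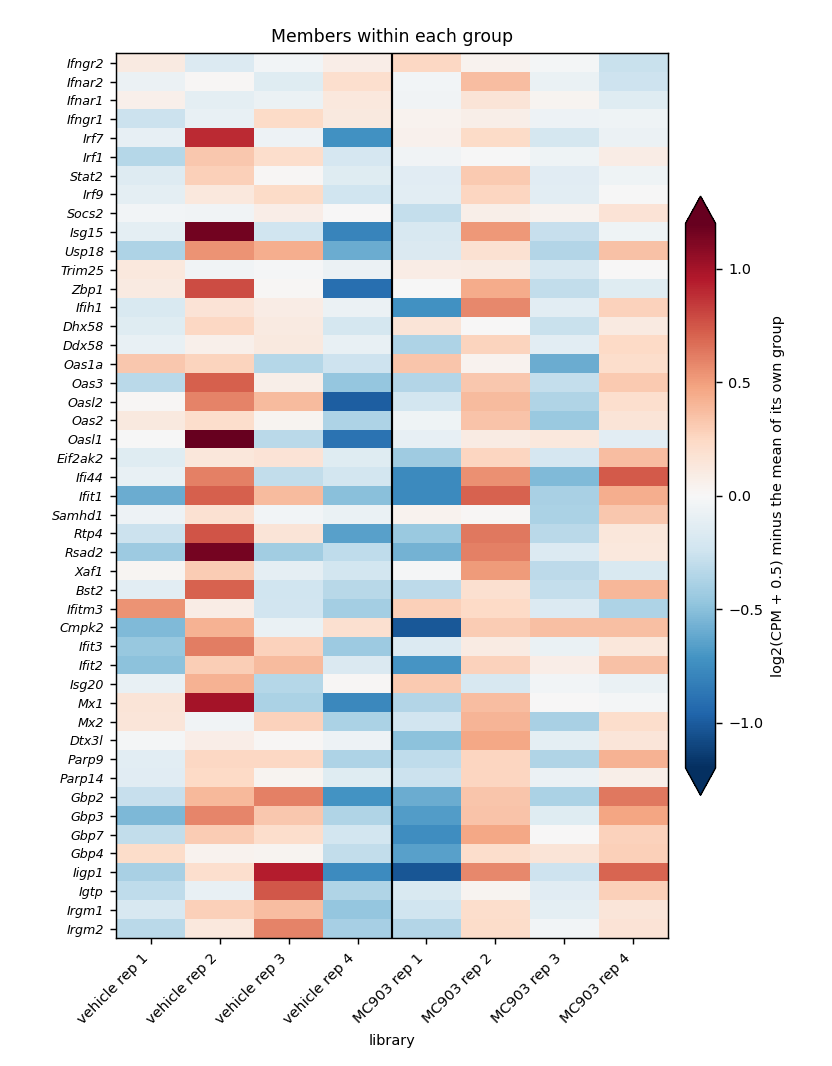
Deviation of each tested gene (rows) in each library (columns) from the mean of its own group, as log2 of CPM plus 0.5; red is above and blue below the group mean, and the black line parts vehicle from MC903. Vehicle replicate 2 is mostly red and replicate 4 mostly blue; the 4 immunity-related GTPases in the last rows are reddest in vehicle replicate 3.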

How the data were processed

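Total RNA of 8 whole ear samples was depleted of ribosomal RNA and sequenced as single reads of 50 bases, per the labels' protocols. For each library the authors deposited raw read counts by Ensembl gene identifier, with CPM and RPKM. Reads were handled with STAR (2.0.4b), Subread and featureCounts (1.4.5) against mm10, as the submitters' processing notes state. The annotation release, the strand setting and the treatment of multiply mapped reads are not given in the sources used here. CPM and RPKM as deposited equalled values recomputed from the counts to within 2.33e-10 and served only for that check. Of 41388 identifiers, 40254 were named by identifier, 150 by position (GENCODE M21 genes, at least 90% overlap both ways) and 984 were left without a name. Mb21d1 is the symbol used here for cGAS and Tmem173 that for STING.

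Counts were filtered with filterByExpr by group (minimum count 10), scaled with TMM and tested by the quasi-likelihood F-test of edgeR 4.0.16 (R 4.3.3) with treatment group alone in the model, Benjamini-Hochberg adjustment over all genes tested and a threshold of 0.05. The SE of a log2 fold change is its size over the square root of F. Libraries within a group differed beyond sampling noise (lowest chi-square per degree of freedom 11.1). Exact intervals used scipy 1.17.1. Intervals and the floor of 3 counts cover counting error only, since amplified reads that carry no molecular identifier need not be independent. The fit was also run on simulated counts drawn from the vehicle means and dispersions. Of 50 genes changed at each size, it called 6 at 1.5-fold, 39 at 2-fold and 50 at 4-fold and at 8-fold. False calls were 5.84% of all calls. Changes of 1.5-fold were thus mostly missed in the simulation. It gave 154 calls among 16028 genes, against 6682 of 16105 in the real fit. Its adjusted threshold was therefore stricter, and these shares do not give the sensitivity of the real fit. The real fit did call some smaller changes, such as Tor3a at 1.325-fold. A gene that did not pass may still differ.

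The genes and lists were chosen with earlier results of these data known. Genes given in every library are Ifng, the receptors, the transcription factors, the 12 largest changes, the 3 smallest, and the smallest p in each role group, with Socs2, Oasl1, Ifit2, Ifit3, Rsad2 and Cmpk2 added after their values were seen; from each pathway and marker list the 2 smallest p are named, except 1 gene that is not reported here. Other genes were named after their values were seen. Alternatives covered 3 other scalings, 2 filters, DESeq2 1.42.0, limma-voom (limma 3.58.1), robust dispersion, a replicate block, a 1.5-fold minimum and leaving out each library in turn.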

Additional observations from a re-analysis of the deposited data

Results flagged for a closer look

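Among 94 groups of 4 values (47 genes in each treatment), 5 held a value whose gap to its nearest neighbour exceeded the share of the range that Dixon's test sets at the 95% level; chance marks about 1 group in 20. In vehicle replicate 2, Rsad2 measured 11.3 CPM (next 3.81), Bst2 measured 24.97 CPM (next 13.8) and Samhd1 measured 68.2 CPM (next 58.7). In MC903 replicate 2, Stat2 measured 87.9 CPM, with the next library at 68.4. In MC903 replicate 1, Cmpk2 measured 2.50 CPM, below the next library at 6.999. Of these 5 genes, Cmpk2 changed its call without the library concerned and was then called higher (edgeR adjusted p = 0.0036), and the other 4 remained called.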

How the results depend on the processing

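Over 18 alternative analyses, 39 to 46 of the listed genes were higher and 0 were lower, and their median log2 fold change was 1.76 to 2.07. Of the 42, 39 stayed called in every alternative. Socs2 was called in 5 of 18, and Ddx58 and Ifit3 were lost against a 1.5-fold minimum (adjusted p = 0.267 and 0.159), which also took all genes called from 6682 to 2422 and the other pathway genes called higher from 56 to 42. Leaving out each library in turn gave 41 to 46 listed genes higher and 5514 to 7072 genes called. Ifng passed the filter and was called when any 1 vehicle library or MC903 replicate 1 was left out. Of all calls, 51.2% were higher, against 44% when scaled by library sizes and 43.1% by upper quartiles, where the median of all genes moved to -0.12 and -0.11.

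Replicate numbers did not pair the samples (correlations of same-numbered deviations 0.07, -0.14, -0.13 and -0.20). With the replicate number as a block, 42 listed genes, 55 pathway genes and 5705 genes in all were called as above, with Socs2 lost and Cmpk2 gained (adjusted p = 0.0174).

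Depth limited Ido1 and the interferon genes, which did not pass the low-count filter.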
